A study of Mus musculus with 6 samples.

Results

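Catecholamines (dopamine, noradrenaline and adrenaline) are made from tyrosine in a short chain of enzymes, packed into vesicles, taken back up after release and oxidised. The 9 genes described here are those of that chain: the cofactor enzyme gene Gch1, the synthesis enzyme genes Th, Ddc, Dbh and Pnmt, the vesicle transporter genes Slc18a1 and Slc18a2, the noradrenaline transporter gene Slc6a2 and the monoamine oxidase gene Maoa. They were chosen by symbol. A gene is represented by the row of the table annotated with its symbol alone, and by its brightest row where there were several. All 9 genes had such a row, 1 each, among 14807 genes so represented and 17213 rows (transcript clusters) in all.

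The values are gene-level signals from Affymetrix mouse exon arrays of N2A cells, a mouse neuroblastoma line. Cells of 3 arrays carried a hairpin (PTB shRNA) that silences PTB, the polypyrimidine tract binding protein, an RNA-binding repressor of many neuronal exons, and cells of the other 3 arrays carried an empty vector. Replicates are biological per the titles, no culture time or batch is given, and PTB protein was reduced by close to 80% per the study's design text. The empty vector carried no hairpin, so PTB loss and the presence of a hairpin cannot be told apart. In RNA from whole cultures, fewer cells of a kind and less RNA per cell cannot be told apart either.

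Tyrosine hydroxylase, the product of Th, carries out the rate-limiting step and needs tetrahydrobiopterin, a cofactor whose own synthesis begins with GTP cyclohydrolase I, the product of Gch1. Sympathetic neurons and adrenal chromaffin cells, the lineage from which neuroblastoma arises, use this chain to make noradrenaline or adrenaline. Cell lines of this tumour are known to differ widely in how much of the chain they keep.

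Summed signal was 9098056 to 10440265 on the PTB shRNA arrays and 10651755 to 12509077 on the empty vector arrays, with array medians of 183 to 206 over both groups. Ptbp1, which encodes PTB, had signals of 1307, 1040 and 1957 with PTB shRNA against 3387, 4203 and 4404 with empty vector. It fell by 1.51 on the log2 scale (SE 0.25, adjusted p = 0.0402, limma; 0.0536 to 0.132 with any 1 array left out), in the direction of the labels. Of 12 sympathoadrenal and neuroblastoma marker genes 11 were measured, with no signal under 144. Phox2a, a transcription factor gene of noradrenergic neurons, had signals of 1072 to 1696 with PTB shRNA and 1895 to 2367 with empty vector, and Hand2, another such factor gene, 1069 to 1894 and 1267 to 1723. Neither passed (adjusted p = 0.181 for Phox2a and 0.744 for Hand2, limma). Over the 11 markers 5 differences were positive and 6 negative, and the 1 call was a rise, that of Gata3.

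Of the catecholamine genes, Gch1 fell with PTB shRNA, to 0.52 of the mean empty vector signal, and was the only 1 of the 9 to pass the test. None rose. The question is whether the RNA levels of the chain differ between cultures with and without the hairpin. Differences are PTB shRNA minus empty vector in log2(signal + 16), a scale that understates the change of dim genes, and a gene passed at a Benjamini-Hochberg adjusted p under 0.05 over all 17213 rows. Over all rows 3.37% were called lower and 1.36% higher, so 1 call among 9 genes says nothing about the group as a whole. After quantile normalization 49.2% of the called rows were lower, against 71.3% on the values as deposited.

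Gch1 had signals of 755, 753 and 847 with PTB shRNA, against 1244, 1590 and 1699 with empty vector. Every PTB shRNA array lay below every empty vector array, and the PTB shRNA arrays lay closer together. The means were 785 ± 53.7 with PTB shRNA and 1511 ± 238 with empty vector (SD, n = 3 arrays each), a ratio of 0.52. The log2 difference was -0.92 (SE 0.14, 95% interval -1.27 to -0.57, adjusted p = 0.0362, limma). An exact two-sided permutation test gave p = 0.1, the smallest that 3 arrays against 3 allow. Scaling changed the size but not the call, with -0.72 after quantile normalization (adjusted p = 0.0259) and -0.90 with arrays centred on their medians (adjusted p = 0.0252). With any 1 of the 6 arrays left out the difference stayed between -1.05 and -0.83, but its adjusted p lay between 0.0596 and 0.127 and no row of the table passed, and a pseudocount of 1 (adjusted p = 0.0551) also ended the call.

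**Figure D1:**
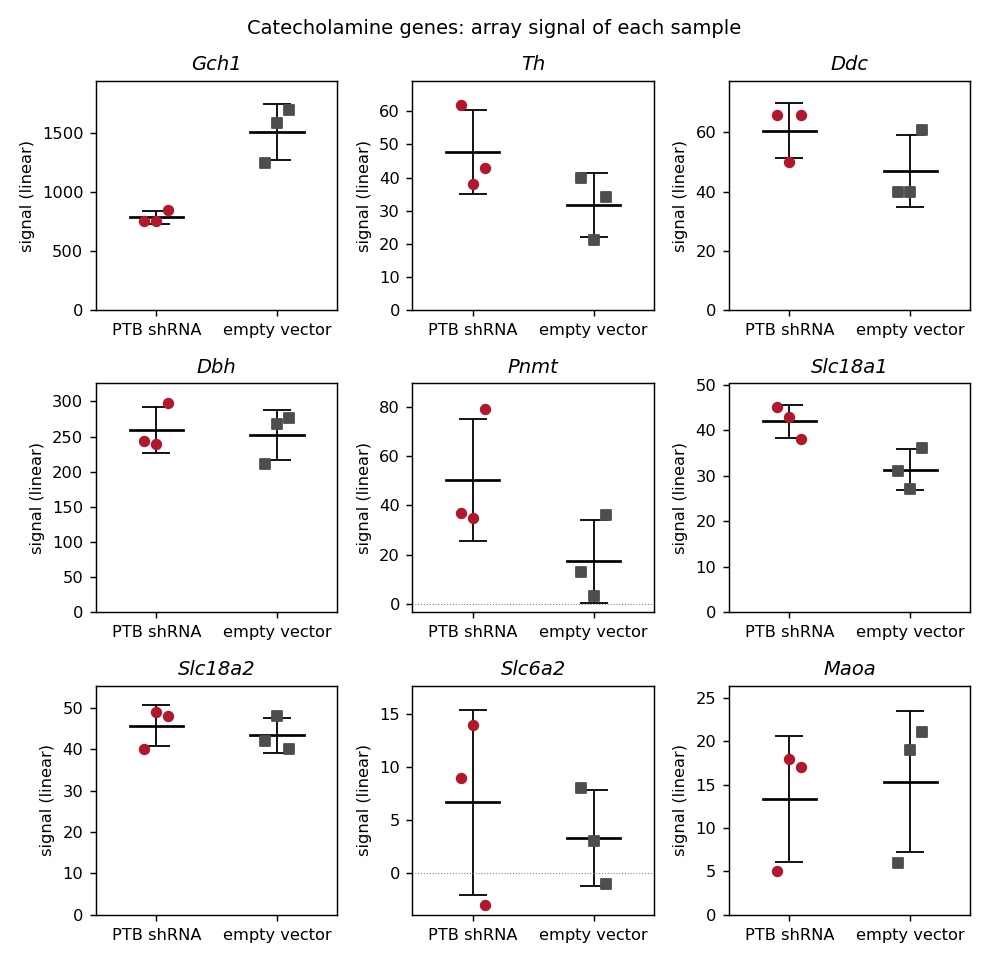
Linear array signal of the 9 catecholamine genes, 1 panel per gene with its own axis. Circles are the 3 PTB shRNA arrays and squares the 3 empty vector arrays, wide bars are means and whiskers 1 SD. The groups are apart for Gch1 (753 to 847 with PTB shRNA, 1244 to 1699 with empty vector) and for Slc18a1 (38 to 45 with PTB shRNA, 27 to 36 with empty vector), and overlap for the others.

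Th had signals of 62, 38 and 43 with PTB shRNA, against 40, 21 and 34 with empty vector. The groups overlapped, and all 6 values lay well under the array medians. The log2 difference was 0.42 (SE 0.21, 95% interval -0.11 to 0.95, adjusted p = 0.289, limma), so a rise did not pass, and the interval does not show that Th stayed level. Ddc, whose enzyme turns L-DOPA into dopamine, had signals of 66, 50 and 66 with PTB shRNA, against 40, 40 and 61 with empty vector. Its groups overlapped as well (log2 difference 0.29, 95% interval -0.13 to 0.72, adjusted p = 0.351, limma). After quantile normalization the log2 differences were 0.20 for Th and 0.07 for Ddc. The Th difference was 0.25 without empty vector array 2 and 0.27 without PTB shRNA array 1.

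Dbh encodes the vesicular enzyme that turns dopamine into noradrenaline. Its signals were 243, 239 and 297 with PTB shRNA, against 211, 268 and 277 with empty vector. The groups covered nearly the same range, with means of 260 ± 32.4 and 252 ± 35.8 (PTB shRNA and empty vector, SD, n = 3 each). The log2 difference was 0.04 (95% interval -0.32 to 0.40, adjusted p = 0.887, limma), an interval that does not reach the difference measured for Gch1. Its sign turned in 3 of the alternatives run, given in the closing section. Pnmt, whose enzyme methylates noradrenaline to adrenaline, had signals of 37, 35 and 79 with PTB shRNA, against 13, 3 and 36 with empty vector. The lowest PTB shRNA value lay just under the highest empty vector value. Its log2 difference had the widest interval of the 9 genes, 1.05 (SE 0.44, 95% interval -0.04 to 2.15, adjusted p = 0.208, limma), and it was 1.91 with a pseudocount of 1 and 0.58 with one of 50.

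The vesicular monoamine transporters load catecholamines into granules and synaptic vesicles. Slc18a1, the form typical of endocrine cells, had signals of 45, 43 and 38 with PTB shRNA, against 31, 27 and 36 with empty vector. The groups did not overlap, as was so, in the same direction, for 10.2% of all rows (and for 19.1% in the other direction, that of Gch1). Slc18a1 did not pass (log2 difference 0.30, 95% interval 0.03 to 0.56, adjusted p = 0.158, limma), and after quantile normalization the difference was 0.07. Slc18a2, the form typical of neurons, had signals of 40, 49 and 48 with PTB shRNA, against 42, 48 and 40 with empty vector. These values interleaved (log2 difference 0.05, 95% interval -0.20 to 0.31, adjusted p = 0.783, limma), and the sign turned after quantile normalization, to -0.17.

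Slc6a2 takes noradrenaline back into the cell. Its signals were 9, 14 and -3 with PTB shRNA, against 8, 3 and -1 with empty vector, so both groups reached below 0, where background subtraction exceeded the signal. Maoa, which encodes a mitochondrial enzyme that oxidises noradrenaline and serotonin, had signals of 5, 18 and 17 with PTB shRNA, against 6, 19 and 21 with empty vector. Replicate 1 was the lowest array in each group. Neither gene passed (log2 differences 0.24 for Slc6a2, 95% interval -0.45 to 0.93, adjusted p = 0.641, and -0.09 for Maoa, 95% interval -0.80 to 0.62, adjusted p = 0.879, limma). The Slc6a2 difference was 0.04 without PTB shRNA array 2 and 0.50 without PTB shRNA array 3. Maob, the gene of the other monoamine oxidase, had signals of 0, 2 and -5 with PTB shRNA, against -1, -3 and -8 with empty vector. No detection call per row was used here, so whether these 3 genes were expressed at all cannot be said. The same holds for Th, Ddc, Pnmt, Slc18a1 and Slc18a2, whose signals of 3 to 79 also lay well under the array medians.

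**Figure D2:**
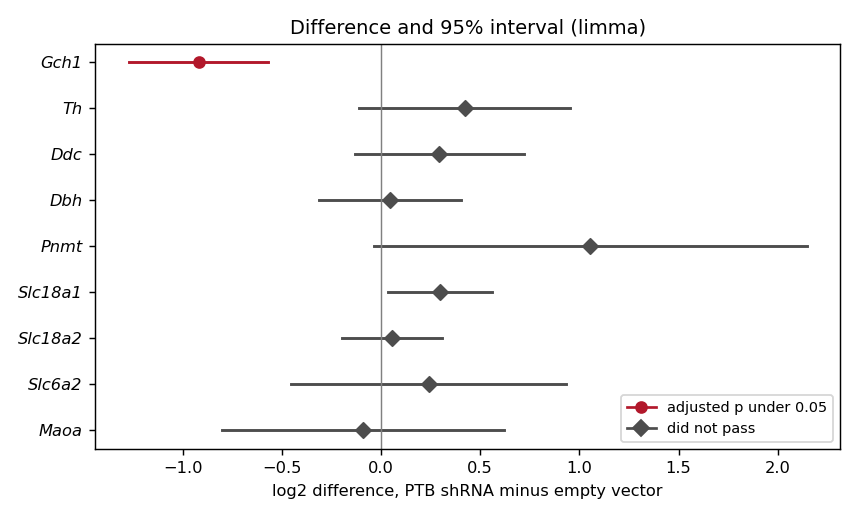
Log2 difference, PTB shRNA minus empty vector, of each catecholamine gene (symbol) with its 95% interval from limma (line). Gch1, at -0.92, is the only gene marked as past an adjusted p of 0.05, and Pnmt has the widest interval, -0.04 to 2.15.

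Promoter sequence is shown for Gch1, the member that changed, and for the cyclic AMP response element (CRE), a feature that genes of this chain are known to share. In rat, Gch1 transcription is known to depend on a CRE-like element and a CCAAT box close to the start site, and the CRE of Th is among the best studied of its promoter elements. RefSeq promoter windows on build GRCm38.p6 (250 bases before the start and 50 after) were found for 6 of the 9 genes, 7 windows in all, since Ddc had 2. The bases before the Gch1 start, chr14:47189414-47189663 on the minus strand, are printed here 5′ to 3′ with a CRE core (TGACG) and a CCAAT box in capitals.

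Gch1: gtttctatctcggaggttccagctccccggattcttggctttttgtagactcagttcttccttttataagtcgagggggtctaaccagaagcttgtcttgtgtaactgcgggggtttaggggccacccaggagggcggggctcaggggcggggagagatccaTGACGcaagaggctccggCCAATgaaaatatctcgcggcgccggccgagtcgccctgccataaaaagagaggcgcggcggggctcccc

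The core begins 88 bases and the CCAAT box 70 bases before the start. A full CRE (TGACGTCA, the same on both strands) was in the windows of Th and Slc18a2, and in 1.79% of all 32851 windows. The core, which the full CRE contains, was found on either strand in windows of 5 members (Dbh, Gch1, Maoa, Slc18a2 and Th) and in 20.8% of all windows. A CCAAT box was in windows of 3 members (Dbh, Ddc and Gch1) and in 37.4% of all windows, and a GC box (GGGCGG) in windows of 4 (Gch1, Maoa, Slc18a2 and Th) and in 35.7%. The 30 bases around the element are lined up below for comparison, with the letters matched in capitals, at chr14:47189483-47189512 for Gch1 and chr7:142900022-142900051 for Th (both minus strand) and at chr19:59260863-59260892 for Slc18a2 (plus strand).

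Gch1: ggagagatccaTGACGcaagaggctccggc
Th: cagaggggcttTGACGTCAgcctggccttt
Slc18a2: agcgctgtccgTGACGTCAgagccggactg

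A match is a description of the letters and says nothing of a factor's binding. Gch1, which fell, has the core without the full palindrome, and so do Dbh and Maoa, which did not pass. Th and Slc18a2, which did not pass either, have the full CRE. Creb1, the gene of a factor that binds the CRE, had signals of 531 to 564 with PTB shRNA and 538 to 679 with empty vector (log2 difference -0.13, adjusted p = 0.513, limma), and was picked out after its values were seen.

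Around the chain, 65 of 86 genes on 6 lists were measured, and 3 of them rose and 1 fell, where 1.36% of all rows were called higher and 3.37% lower. The median difference over all rows was 0.00, against 0.24 for the 9 catecholamine genes (0.07 after quantile normalization). Dim rows ran higher: the median was -0.09 without the dimmest 30% of rows and -0.18 without the dimmest 50%. Of the 9 genes, 7 had mean signals under 200. The likewise dim leukocyte, glial and fibroblast marker lists had medians of 0.17, 0.24 and 0.28, so 0.24 is not particular to the chain. Dim lists did not all run as high, since the receptor list, with signals of -12 to 276, had a median of 0.01. That of other transmitter systems, with signals of -1 to 952, had 0.13. After quantile normalization the medians of the lists for the cofactor (0.07), receptors (-0.12) and transcription factors (0.04) had the opposite sign to those given below. Signals of different rows are not compared as amounts, since probes differ in response.

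The other enzymes of the tetrahydrobiopterin route did not pass with Gch1. Of 7 measured genes of 9 on that list none rose or fell, and the median was -0.11. Cbr1, a carbonyl reductase that can stand in for sepiapterin reductase, had signals of 694, 679 and 680 with PTB shRNA, against 916, 877 and 999 with empty vector. The groups did not overlap, and the difference was just outside the threshold (log2 -0.43, SE 0.08, adjusted p = 0.0507, limma). It was -0.24 after quantile normalization (adjusted p = 0.151), and 5 of the 9 alternatives that keep all arrays called it lower. Pcbd2, one of the pterin dehydratase genes that recycle the cofactor, differed by -0.35 (adjusted p = 0.0952) and Spr, the gene of sepiapterin reductase, by 0.22 (adjusted p = 0.390). Pts, whose enzyme acts directly after that of Gch1, had signals of 213, 186 and 231 with PTB shRNA, against 183, 265 and 242 with empty vector. Gchfr, whose protein inhibits GTP cyclohydrolase I, had signals of 314, 271 and 303 with PTB shRNA, against 283, 307 and 330 with empty vector. Both pairs of groups overlapped. Pts and Gchfr were picked out after their values were seen, as were Phox2a, Hand2, Drd5, Gfap, Sox10, Lum and Pdgfra.

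Dbh needs ascorbate and copper inside the granule, and 11 of 12 genes on the list for that supply and for granule proteins were measured, with 0 higher, 1 lower and a median of -0.26. Cyb561, the granule cytochrome that passes electrons inward to regenerate ascorbate, had signals of 1146, 893 and 885 with PTB shRNA, against 1801, 1847 and 1614 with empty vector. No PTB shRNA array reached the lowest empty vector array, and the gene fell by 0.85 on the log2 scale (SE 0.13, adjusted p = 0.0367, limma). After quantile normalization the difference was -0.65 and did not pass (adjusted p = 0.0695), and it did not pass with a pseudocount of 1 (adjusted p = 0.0557) or with any 1 array left out. Atp7a, a copper pump, differed by 0.60 (adjusted p = 0.103), the granule protein gene Chgb by -0.54 (adjusted p = 0.122) and the copper importer gene Slc31a1 by -0.42 (adjusted p = 0.0923), none past the threshold.

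Of 9 measured genes for other uptake and breakdown steps, of 15 listed, none rose or fell, with a median of 0.06. The alcohol dehydrogenase gene Adh5 differed by -0.62 (adjusted p = 0.0719), the organic cation transporter gene Slc22a2 by 0.59 (adjusted p = 0.319) and the dopamine transporter gene Slc6a3 by 0.48 (adjusted p = 0.346, limma). Without PTB shRNA array 1, the brightest for both transporter genes, these were 0.27 for Slc22a2 and 0.19 for Slc6a3. Of 7 measured adrenergic and dopamine receptor genes, of 14 listed, none rose or fell, with a median of 0.01. Drd3 (0.66), Adra1b (0.45) and Drd4 (0.15) had the largest differences, with adjusted p-values of 0.292, 0.437 and 0.586, and with any 1 array left out they ranged from 0.31 to 0.89, 0.23 to 0.74 and 0.01 to 0.29 in that order. Drd5 had 2 rows that differed in sign, at -0.04 for the brighter and 0.40 for the dimmer, and neither passed.

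Of 18 measured transcription factor genes known for their part in Th and Dbh expression or in the lineage, of 20 listed, 3 rose and none fell, with a median of -0.04. Gata3, a zinc-finger factor of sympathetic neurons, had signals of 337, 326 and 321 with PTB shRNA, against 144, 210 and 170 with empty vector, and rose by 0.87 (adjusted p = 0.0384, limma). Nr4a2, a nuclear receptor that drives Th in midbrain neurons, had signals of 248, 233 and 237 with PTB shRNA, against 141, 111 and 141 with empty vector, and rose by 0.80 (adjusted p = 0.0336). Sox4, a high-mobility-group factor of the developing sympathetic system, had signals of 2708, 2207 and 2490 with PTB shRNA, against 1204, 1285 and 1565 with empty vector, and rose by 0.87 (adjusted p = 0.0372). In all 3 the groups were apart, as was so, in the same direction, for 10.2% of all rows. The part of these 3 factors in the RNA levels of Th and Dbh was not tested. None of the 3 passed with any 1 array left out or with a pseudocount of 1. Of the genes that did not pass, Egr1 (-1.32, adjusted p = 0.0877), Isl1 (0.73, adjusted p = 0.150) and Gata2 (-0.64, adjusted p = 0.0667) differed most, and the difference of Egr1 was larger in size than those of the 3 genes that rose.

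**Figure D3:**
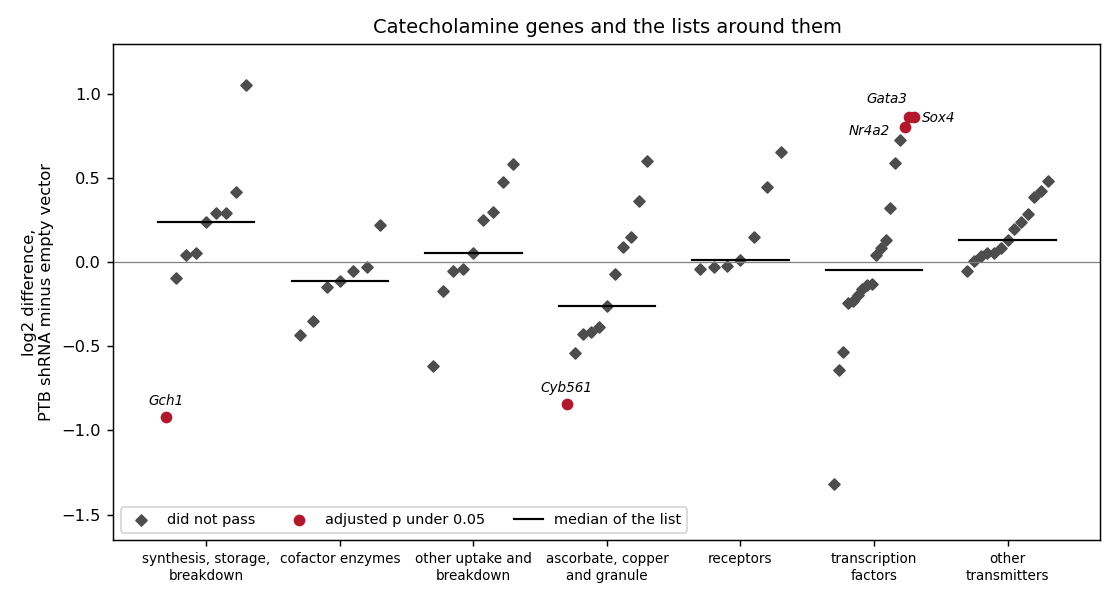
Log2 difference, PTB shRNA minus empty vector, of every measured gene in 7 groups of genes, ordered by value within each group. Circles passed an adjusted p of 0.05, diamonds did not, and bars are medians. Gch1 and Cyb561 are the genes that fell and Gata3, Nr4a2 and Sox4 those that rose.

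Genes of other transmitter systems gave no call either, with 13 of 16 measured and a median of 0.13. Chat, the acetylcholine synthesis gene, differed by 0.49 (adjusted p = 0.132), the vesicular glutamate transporter gene Slc17a6 by 0.43 (adjusted p = 0.159) and the GABA synthesis gene Gad1 by 0.39 (adjusted p = 0.280, limma).

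The genes with profiles most like those of Gch1 and Dbh were found among 7536 other genes with a mean signal of at least 200, a level that the other 7 members did not reach. Likeness was the root-mean-square difference between log2 profiles over the 6 arrays, each centred on its own mean. Nearest to Gch1 were Mrps10, a mitochondrial ribosomal protein gene (0.05 log2 units), Efcab14 (0.08) and Bet1, a vesicle transport gene (0.08). Mrps10 had signals of 595, 557 and 684 with PTB shRNA, against 1004, 1235 and 1256 with empty vector. Nearest to Dbh were Rbm26 (0.03), Ndc1 (0.04) and Med6 (0.04), all without a difference that passed. The profiles include the group difference, which the genes nearest to Gch1 share.

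Of 5 measured leukocyte markers none had a signal above 38, with sums of 80 to 109 on the PTB shRNA arrays and 73 to 91 on the empty vector arrays. The 5 measured glial markers summed to 168 to 340 with PTB shRNA and 153 to 206 with empty vector, and 4 of the 5 differences were positive, none past the threshold. Gfap lay between -5 and 11, and Sox10 had signals of 193, 116 and 81 with PTB shRNA against 106, 57 and 95 with empty vector. The 7 fibroblast markers summed to 300 to 471 with PTB shRNA and 229 to 284 with empty vector. Of these Pdgfra, with signals of 123, 103 and 80 with PTB shRNA against 43, 33 and 32 with empty vector, rose by 1.17 (adjusted p = 0.0342, limma; 0.0536 to 0.121 with any 1 array left out). Over the list, 6 of the 7 fibroblast markers had a positive difference, with a median of 0.28, and Lum, between 2 and 18 on all arrays, a negative one. After quantile normalization 4 of the fibroblast markers were positive and 3 negative, with a median of 0.07. The part of these markers in the differences of the catecholamine genes was not tested.

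**Figure D4:**
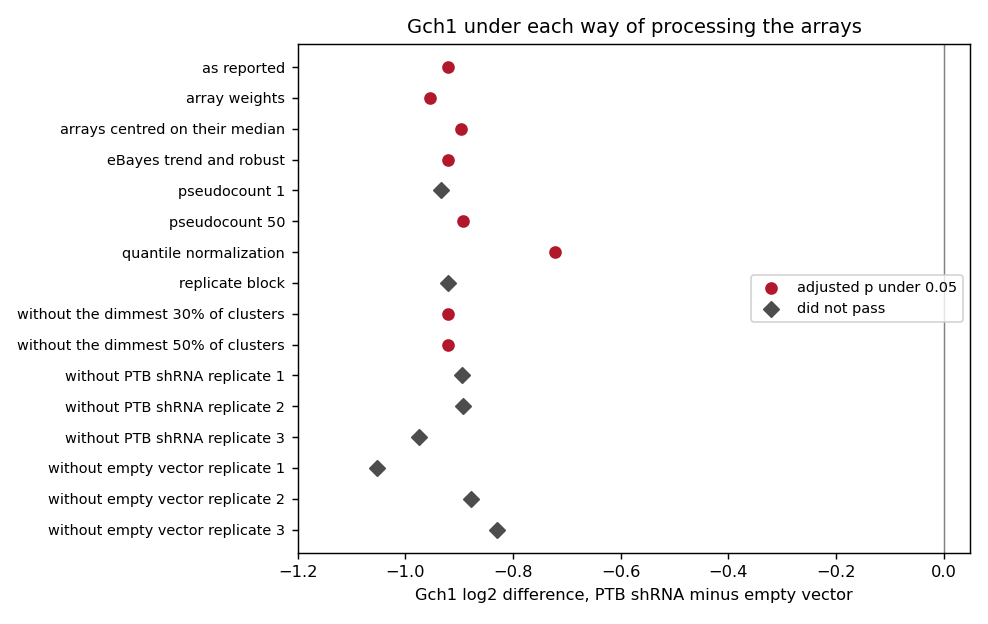
Log2 difference of Gch1, PTB shRNA minus empty vector, under the reported processing and each of 15 alternatives. Circles passed an adjusted p of 0.05 and diamonds did not. All values lie between -1.05 and -0.72, and the call is lost with a pseudocount of 1, with the replicate number as a block and without any 1 array.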

How the data were processed

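The deposited values are linear intensity per transcript cluster, whole numbers with 1 column per array. The submitters' processing notes name GCOS 1.3. For probe summarisation, background method and scaling the method is not given in the sources used here. Values below 0 on 2.70% to 5.75% of rows per array show that background was subtracted. Array sums differ, so the gene-level values were not quantile-normalized, and whether probe values were is not given. RNA was depleted of ribosomal RNA before labelling, per the labels' protocols. Gene-level values do not show exon inclusion.

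The platform annotation supplied gene names: 15146 rows had 1 symbol, 1278 several and 789 none, and all 9 members matched RefSeq (GRCm38.p6) by Entrez identifier. Intensity below 0 was set to 0, log2(intensity + 16) was taken, and all rows were fitted with limma 3.58.1 (lmFit, eBayes, R 4.3.3) without a block, on all 6 arrays with 4 residual degrees of freedom. The test was two-sided, and the small number of arrays limits the precision. On simulated data, the fit was tested with 200 of 17213 rows changed, all brighter than the median row. It recovered 51.5% of changes of 1 log2 unit and 4.41% of changes of 0.5. In the real data 234 rows were called higher and 580 lower, more than the simulation changed. The adjusted p depends on the share of changed rows, so recovery in the real data may differ from these rates. The 7 members with a mean signal under 200 lay below the median row, so these rates do not cover them. Plots used matplotlib 3.10.9.

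The members, gene lists, motifs and tests were chosen with earlier results of these data known. All members, Ptbp1 and Maob were named, then from each list the genes that passed and the 3 largest differences among the rest, and the 3 genes most like each member with a mean signal of at least 200. Any other gene named was picked out after its values were seen.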

Additional observations from a re-analysis of the deposited data

How the results depend on the processing

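The limits are 3 arrays a group and mean signals of 7 members no higher than the 34.6 percentile of all rows. Gch1 was negative under all 15 alternatives and passed under 7. Over all rows, the limma counts of 234 higher and 580 lower became 445 and 1180 with array weights, 376 and 716 with arrays centred on their medians, 463 and 1502 with trend and robust settings, 84 and 132 with a pseudocount of 1, 322 and 930 with one of 50, and 506 and 491 after quantile normalization. Without the dimmest 30% of rows they were 499 and 1386, and without the dimmest 50% 386 and 2100, with fewer rows tested. Among the 65 genes on the lists, the 3 higher and 1 lower became 0 and 0 with a pseudocount of 1. The lower ones numbered 0 after quantile normalization, 3 with a pseudocount of 50, 5 with array weights and without the dimmest 30%, and 9 without the dimmest 50%. Trend and robust settings gave 5 higher and 6 lower. With a pseudocount of 1, 0 members passed, and Ptbp1 differed by -1.52 (adjusted p = 0.0605).

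With any 1 array left out, limma called 0 rows, 0 members and 0 list genes in either direction, with 1001 to 1721 rows higher and 2008 to 3018 lower at an unadjusted p under 0.05, and Ptbp1 between -1.75 and -1.30. Dbh ranged from -0.072 to 0.11 and turned negative without PTB shRNA array 3 (-0.05), without empty vector array 1 (-0.072) and with array weights (-0.0062). Maoa ranged from -0.33 to 0.13 and turned positive without PTB shRNA array 1 (0.13), empty vector array 2 (0.01) or empty vector array 3 (0.05). The other members that did not pass kept a positive sign, at 0.25 to 0.55 for Th, 0.22 to 0.45 for Ddc, 0.71 to 1.44 for Pnmt, 0.23 to 0.37 for Slc18a1, 0.01 to 0.12 for Slc18a2 and 0.04 to 0.50 for Slc6a2. Slc18a2 turned to -0.17 after quantile normalization. The cause was not tested.

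With the replicate number as a block, 0 rows, 0 members and 0 list genes passed in limma (1708 higher and 2963 lower at an unadjusted p under 0.05), with Gch1 at -0.92 and Ptbp1 at -1.51 (adjusted p = 0.0840 each). The labels do not say that a number marks a shared day or batch. Deviations of same-numbered arrays from their group means correlated at 0.23, 0.05 and 0.26, and each array correlated best with its own number. For PTB shRNA array 2 the margin was slight, at 0.055 with its own number against 0.050 with empty vector array 1. No member had another row, so no other row could stand for it.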
